A study of Mus musculus with 6 samples.

Results

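Fetal liver and oncofetal genes are genes that the embryonic liver expresses, the adult liver largely silences, and liver tumours or injured livers may express again. The set examined here was fixed by symbol as Afp, H19, Igf2, Igf2bp3, Dlk1, Gpc3, Golm1 and Ly6d, which are 8 listed genes. Of these, 7 had a row among the 16603 genes of the deposited count table and H19 was not analysed here. The samples were mouse livers, with bulk RNA-seq on 3 libraries labelled Mdr2-knockout and 3 labelled WT. The Mdr2-knockout label denotes loss of Mdr2 (gene symbol Abcb4), the phospholipid pump of the bile canaliculus, and WT denotes the unmodified genotype. The sources used here give no allele, strain, age or sex, and do not say whether each sample came from its own animal. A p-value therefore measures only how these samples spread, and that spread may be technical.

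Library totals ran from 17100393 to 18124467 counts. The columns of the table carry the letter M, read as Mdr2-knockout from the sample titles, and the letter N, read as WT by elimination. Abcb4 itself stood at 482 ± 42.4 CPM in the libraries labelled Mdr2-knockout and 324 ± 48.1 CPM in those labelled WT (SD, n = 3 each), with a log2 fold change of 0.57 (edgeR adjusted p = 0.00389). CPM are counts per 1000000 reads, after the library size is scaled by TMM, a factor that equalises the bulk of genes between libraries. Counts over the whole gene need not fall in a knockout allele, and the deleted part is not known here. Because Abcb4 runs counter to the labelling, every group is called by its label, and each direction rests on that reading. Of the lists of cell type markers used here, that of hepatocytes had the highest sum in all 6 libraries. Its 12 markers summed to 89690 to 95370 CPM in the labelled Mdr2-knockout and 137700 to 144600 CPM in the labelled WT libraries. Albumin (Alb), which is among them, made up much of this, with means of 49467 and 85388 CPM in that order.

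The 7 genes with values have separate roles. Afp encodes alpha-fetoprotein, the main plasma protein of the fetus, whose gene lies beside albumin and is repressed after birth, in mouse in part by the factor Zhx2. Igf2 encodes insulin-like growth factor 2, an imprinted fetal growth factor that falls to low levels in mouse liver after birth; it neighbours H19, an imprinted noncoding RNA. Igf2bp3 encodes an RNA-binding protein that binds Igf2 and other messages in embryonic tissue, and Dlk1 encodes a membrane protein that marks hepatoblasts. Gpc3 encodes a cell-surface heparan sulphate proteoglycan used in pathology as a mark of human hepatocellular carcinoma. Golm1 encodes a Golgi membrane protein, also known as GP73, which in human liver is made mainly by bile duct cells and appears in hepatocytes in disease. Ly6d encodes a small GPI-anchored surface protein, known from squamous epithelium and from early B cells.

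RefSeq promoter entries (build GRCm38.p6, the build that the submitters' processing notes call mm10) were found for 6 of the 7 genes, with 9 entries in all because Igf2 has several. The 250 bases before the annotated start are shown for 3 genes that differ most between the labelled groups among those with an entry: Afp, Golm1 and Igf2bp3. In Afp, capitals mark a TATA box (TATAAA) and a half-site of the hepatocyte factor HNF1 (GTTAAT); in Golm1 and Igf2bp3, capitals mark CpG dinucleotides.
Afp, chr5:90490464-90490713, plus strand: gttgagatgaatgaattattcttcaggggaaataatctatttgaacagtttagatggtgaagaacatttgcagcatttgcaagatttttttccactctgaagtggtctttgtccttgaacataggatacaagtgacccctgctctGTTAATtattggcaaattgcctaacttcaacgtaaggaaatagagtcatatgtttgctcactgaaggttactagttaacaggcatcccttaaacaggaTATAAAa
Golm1, chr13:59675785-59676034, minus strand: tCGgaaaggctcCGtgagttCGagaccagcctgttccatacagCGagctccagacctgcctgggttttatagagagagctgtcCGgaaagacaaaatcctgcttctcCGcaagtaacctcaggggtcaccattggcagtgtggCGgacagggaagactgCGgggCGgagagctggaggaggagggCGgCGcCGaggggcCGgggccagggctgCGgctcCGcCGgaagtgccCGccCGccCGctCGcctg
Igf2bp3, chr6:49214955-49215204, minus strand: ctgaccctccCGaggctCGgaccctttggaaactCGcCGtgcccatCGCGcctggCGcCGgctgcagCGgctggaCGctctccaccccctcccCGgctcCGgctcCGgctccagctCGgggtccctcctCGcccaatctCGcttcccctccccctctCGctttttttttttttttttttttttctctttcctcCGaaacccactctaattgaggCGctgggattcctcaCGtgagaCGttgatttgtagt

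The promoters of the set were of different kinds. The Afp window held 1 CpG and a GC content of 36%, lower in GC than most of the 32851 promoter windows, whose median was 52.4%. The Golm1 window held 20 CpG (65.6% GC), the Igf2bp3 window 21 (60.4% GC) and the Gpc3 window 25 (71.6% GC), against a median of 6 CpG over all windows. The TATA letters, on either strand, were in the Afp and Golm1 windows and in 12.4% of all windows. The HNF1 half-site letters, on either strand, were in the Afp window alone among the 9 entries and in 6.43% of all windows. Such a match describes the letters and is no evidence of binding. The Igf2bp3 entry starts inside the RefSeq gene span, which reaches farther upstream. In the Afp window the TATA letters begin only 7 bases before the RefSeq start. The GENCODE M21 annotation places the start of Afp 23 bases farther downstream, so the window may not end at the start in use.

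Golm1, the Golgi membrane protein gene, rose in the labelled Mdr2-knockout libraries. Its counts were 265, 253 and 212 in the labelled Mdr2-knockout libraries and 50, 62 and 54 in the labelled WT libraries. Every labelled Mdr2-knockout library lay above every labelled WT library, and the spread within a group was small beside the gap. The level was 12.3 ± 1.13 CPM in the labelled Mdr2-knockout and 3.52 ± 0.401 CPM in the labelled WT libraries (SD, n = 3 each), for which edgeR gave a log2 fold change of 1.81 with an SE of 0.15 (adjusted p = 2.1e-05). Golm1 was the only gene of the set above the low-count filter in all 6 libraries. On the map (chr13:59634996-59675784) its span overlaps Naa35 on the other strand, and since the strand setting is not given in the sources used here, reads from the shared stretch cannot be told apart; Naa35 had 1652 counts over the labelled Mdr2-knockout and 1195 over the labelled WT libraries.

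**Figure D1:**
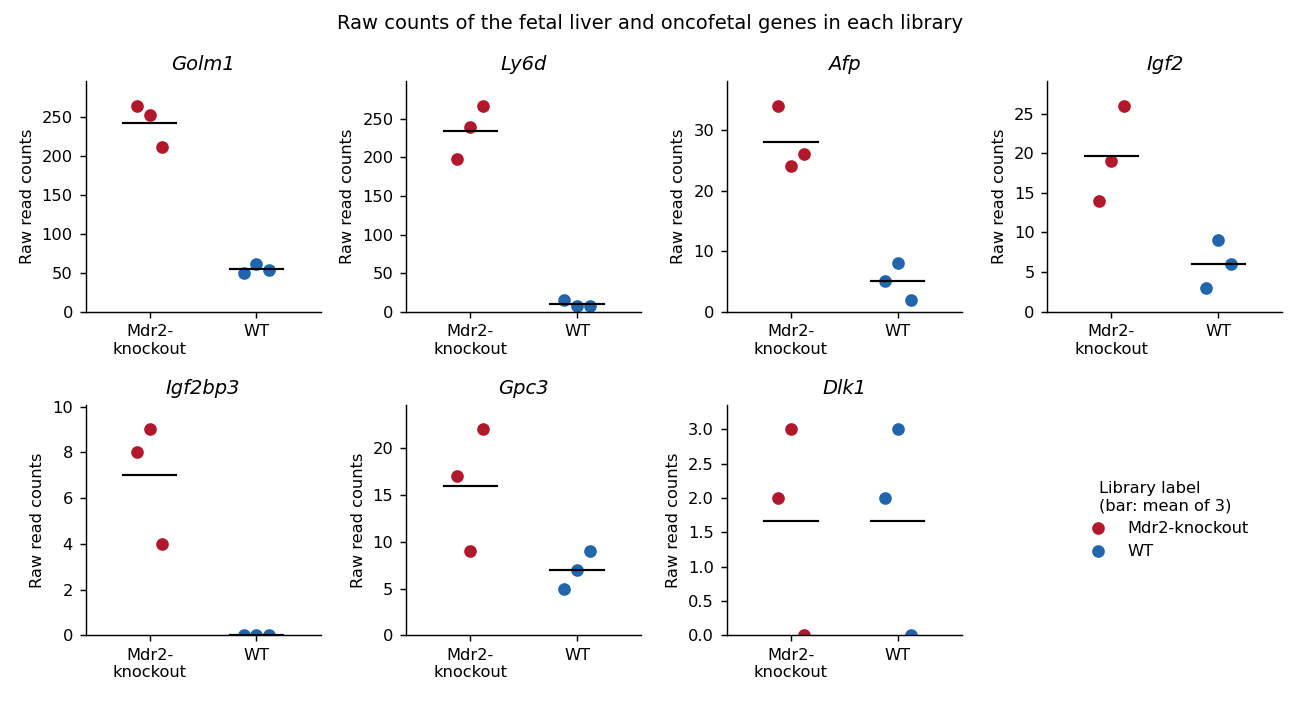
Raw read counts (y axis, linear from 0) of the 7 genes with values, in each of the 3 libraries labelled Mdr2-knockout (red) and the 3 labelled WT (blue), with a bar at the mean of 3. The groups do not overlap for Golm1, Ly6d, Afp, Igf2 and Igf2bp3, while those of Gpc3 and Dlk1 do.

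Ly6d, the GPI-anchored surface protein gene, had the steepest tested change of the set. It had 198, 239 and 267 counts in the labelled Mdr2-knockout libraries, against 15, 8 and 7 counts in the labelled WT libraries. The labelled WT libraries thus held a low but measurable level, and the lowest labelled Mdr2-knockout library stood far above the highest of them. The means were 11.9 ± 2.03 CPM in the labelled Mdr2-knockout and 0.635 ± 0.278 CPM in the labelled WT libraries (SD, n = 3 each), for which edgeR gave a log2 fold change of 4.21 with an SE of 0.26 (adjusted p = 3.74e-06). By log2 fold change Ly6d took rank 72 of the 12612 tested genes, while Golm1 took rank 624. Ly6d lies at chr15:74762056-74763567, and no other gene of the GENCODE M21 annotation overlaps it.

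The known squamous and B-cell settings of Ly6d were set beside it. Of 10 B-cell markers, 9 had a row and 3 were tested, of which edgeR called 1 higher, the joining chain gene Jchain (log2 fold change 2.51, adjusted p = 0.00059). At an unadjusted p under 0.05, and with total counts, 2 were higher, and DESeq2 and limma-voom called 1; 0 were lower in each of these. The summed level of the 9 was 6.6 to 9.08 CPM in the labelled Mdr2-knockout and 3.75 to 4.99 CPM in the labelled WT libraries. The B-cell surface gene Ms4a1 had 10 counts over the labelled Mdr2-knockout libraries and 15 over the labelled WT libraries. Ebf1, an early B-lineage factor that fat and stromal cells also express, had 12, 3 and 14 counts in the labelled Mdr2-knockout and 0, 1 and 0 in the labelled WT libraries. Of 6 markers of stratified epithelium, 3 had a row: the squamous factor Trp63 had 3 counts over the labelled Mdr2-knockout and 2 over the labelled WT libraries, and Ivl had 2 and 0. Sprr1a, a cornified envelope gene, had 132 and 0 counts. The part of such cells in the Ly6d level was not tested.

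Afp, the alpha-fetoprotein gene, rose as well, at a far lower level. Counts were 34, 24 and 26 in the labelled Mdr2-knockout libraries, against 5, 8 and 2 in the labelled WT libraries. All 3 labelled Mdr2-knockout libraries were above all 3 labelled WT libraries, but no library exceeded 34 counts. In CPM the gene stood at 1.42 ± 0.245 in the labelled Mdr2-knockout and 0.318 ± 0.192 in the labelled WT libraries (SD, n = 3 each), and the edgeR log2 fold change was 2.13 with an SE of 0.44 (adjusted p = 0.0042). The spread of its counts between labelled Mdr2-knockout libraries, a variance of 1.0 times the mean, was no more than counting alone gives. Between labelled WT libraries the variance was 1.8 times a mean of 5 counts. Afp (chr5:90490714-90508907) overlaps an antisense gene model, Gm43449, not analysed here.

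Albumin (Alb), the adult counterpart and neighbour of Afp, went the other way. It stood at 49467 ± 848 CPM in the labelled Mdr2-knockout and 85388 ± 4348 CPM in the labelled WT libraries (SD, n = 3 each), and its edgeR log2 fold change was -0.79 with an SE of 0.08 (adjusted p = 5.46e-05). Afm, which encodes the related plasma protein afamin, fell as well (log2 fold change -0.82, edgeR adjusted p = 0.00026), and Gc, which encodes the vitamin D-binding protein, had -0.11 and did not pass (edgeR adjusted p = 0.293). Per 1000000 Alb counts of the same library, a ratio that needs no scaling between libraries, there were 34.7, 24.0 and 27.3 Afp counts in the labelled Mdr2-knockout and 3.74, 5.68 and 1.55 in the labelled WT libraries. The ratio thus did not overlap between the groups, with means of 28.7 ± 5.48 and 3.66 ± 2.07 in that order (SD, n = 3 each). This follows from the counts of both genes, since Afp was higher and Alb lower in every labelled Mdr2-knockout library. The ratio is therefore no separate support for Afp, and its gap also holds the fall of Alb. Even in the labelled Mdr2-knockout libraries, Afp reached 0.751 ± 0.135 FPKM and Alb 26550 ± 282 FPKM (SD, n = 3), so that Afp remained a trace transcript beside Alb.

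Igf2, the fetal growth factor gene, was higher by a margin that the test barely passed. Its counts were 14, 19 and 26 in the labelled Mdr2-knockout and 3, 9 and 6 in the labelled WT libraries. The groups did not overlap, yet the lowest labelled Mdr2-knockout library lay only 5 counts above the highest labelled WT library. The level was 1.001 ± 0.331 CPM in the labelled Mdr2-knockout and 0.381 ± 0.192 CPM in the labelled WT libraries (SD, n = 3 each), and edgeR put the log2 fold change at 1.37 with an SE of 0.47 (adjusted p = 0.0411). The call was lost with DESeq2 (adjusted p = 0.0627), limma-voom (0.0524) and without the low-count filter (edgeR, 0.0516). It was also lost when labelled Mdr2-knockout replicate 2 or 3 was left out (edgeR adjusted p = 0.0803 and 0.132) and when labelled WT replicate 1 or 3 was (0.137 and 0.0878). Igf2 (chr7:142650768-142666816) overlaps the antisense Igf2os and the protein-coding model Gm49394, neither analysed here.

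**Figure D2:**
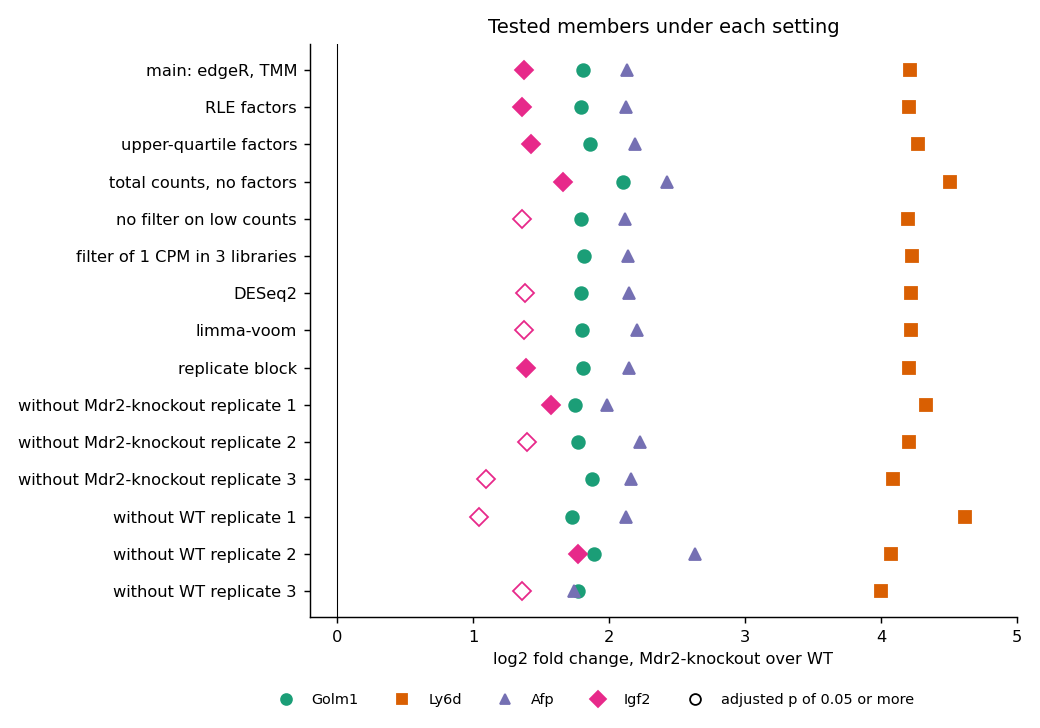
The log2 fold change of labelled Mdr2-knockout over labelled WT (x axis) for Golm1, Ly6d, Afp and Igf2 under the main fit and each alternative setting (rows), with filled symbols for an adjusted p under 0.05 and open ones otherwise. Golm1, Ly6d and Afp are filled in every row, whereas Igf2 is open in 7 rows and has no symbol under the filter of 1 CPM in 3 libraries.

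Thus 4 of the 4 tested genes of the set were called higher and 0 lower by edgeR, also at an unadjusted p under 0.05, while DESeq2 and limma-voom each called 3 higher and 0 lower. Over all 12612 tested genes 20.9% were called higher and 16.3% lower, or 37.1% in either direction, and in 27.6% all 3 labelled Mdr2-knockout libraries lay above all 3 labelled WT libraries. The count of 4 is no support in itself: a gene was tested only if 3 libraries reached 0.568 CPM of the raw totals, and Afp and Igf2 reached it in the labelled Mdr2-knockout libraries alone, Ly6d in those and in 1 labelled WT library. Scaling by total counts shifted the median over all tested genes up by 0.29 on the log2 scale, in the direction of these calls, so it is no check of them.

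**Figure D3:**
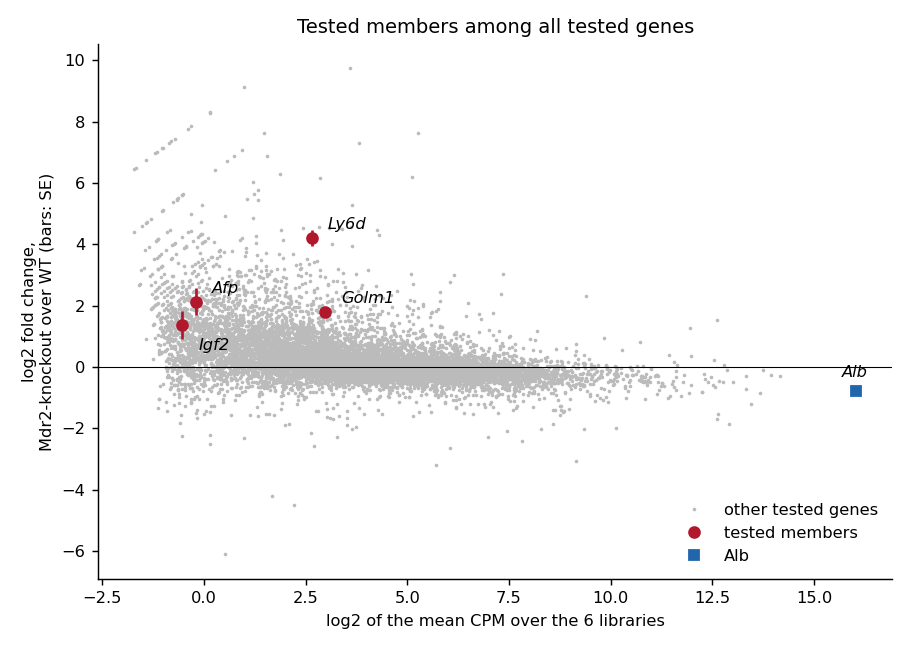
The log2 fold change of labelled Mdr2-knockout over labelled WT (y axis, bars are SE) against the log2 of the mean CPM over the 6 libraries (x axis) for all 12612 tested genes (grey), the 4 tested genes of the set (red) and Alb (blue). Ly6d stands at 4.21 and Golm1 at 1.81 in the middle of the range of levels, while Afp at 2.13 and Igf2 at 1.37 lie at the low end of the levels tested.

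The other 3 genes were below the low-count filter and are given by raw counts. Igf2bp3, the oncofetal RNA-binding protein gene, had 8, 9 and 4 counts in the labelled Mdr2-knockout libraries and 0, 0 and 0 in the labelled WT libraries. It was seen in each labelled Mdr2-knockout library and in none of the labelled WT libraries. With the labelled WT group set to 3 counts in all, the limit that a count of 0 allows, it was at least 5.58-fold higher at the 21 counts observed. The exact 95% counting interval, which also covers the error of those 21 counts, began at 4.15. Without 1 labelled WT replicate the first bound was 3.71 to 3.73, since the same floor is then spread over fewer reads. Among the 3665 genes with a count below the filter, 19% had all 3 labelled Mdr2-knockout libraries above all 3 labelled WT libraries. Fitted without the low-count filter, where 17.3% of 16277 genes were called higher, Igf2bp3 had an edgeR adjusted p of 0.0087. Its span (chr6:49085218-49215469) overlaps Malsu1 on the other strand, which had 556 counts over the labelled Mdr2-knockout and 496 over the labelled WT libraries.

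Gpc3, the glypican gene, leaned the same way without passing a test. Its counts were 17, 9 and 22 in the labelled Mdr2-knockout and 5, 7 and 9 in the labelled WT libraries. The groups met at 9 counts, labelled Mdr2-knockout replicate 2 being no higher than labelled WT replicate 3. The ratio of depth-scaled summed counts was 1.82, with an exact 95% counting interval of 1.07 to 3.2 that leaves out the spread between libraries. In the fit without the low-count filter its log2 fold change was 0.84 (SE 0.51, edgeR adjusted p = 0.227). Gpc3 lies on the X chromosome (chrX:52272426-52613974).

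Dlk1, the hepatoblast marker gene, was all but absent from both groups. The labelled Mdr2-knockout libraries had 2, 3 and 0 counts and the labelled WT libraries 2, 3 and 0 counts. Summed, both groups had 5 counts, a ratio of 0.797 after scaling for depth, with an exact 95% counting interval of 0.183 to 3.46. The direction turned with single libraries: the ratio was 0.48 without labelled Mdr2-knockout replicate 2 and 1.18 without replicate 3, and it was 1.33 without labelled WT replicate 2 and 0.53 without replicate 3. The counts of Dlk1 do not exclude a change of 3-fold in either direction, as the interval holds both. Its log2 fold change without the low-count filter was -0.32 (SE 1.19, edgeR adjusted p = 0.86). Intervals and floors cover counting error only, since reads without molecular identifiers are not independent molecules.

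Levels of different genes were compared per length, in the deposited FPKM, which are scaled by each library's total. In the labelled Mdr2-knockout libraries the order was Ly6d at 19.1 ± 3.23 FPKM, Golm1 at 3.68 ± 0.338, Afp at 0.751 ± 0.135, Gpc3 at 0.397 ± 0.17, Igf2 at 0.221 ± 0.0731, Igf2bp3 at 0.0685 ± 0.0248 and Dlk1 at 0.0191 ± 0.0175 FPKM (SD, n = 3). Of the neighbours in that order, Gpc3 and Igf2 overlapped between libraries and the others did not. In the labelled WT libraries Golm1 stood at 0.859 ± 0.0844 FPKM and Ly6d at 0.834 ± 0.379, with overlapping ranges, followed by Gpc3 at 0.176 ± 0.0482 and Afp at 0.137 ± 0.0817 FPKM, which overlapped as well. Igf2 followed at 0.0684 ± 0.0335 and Dlk1 at 0.0199 ± 0.0181 FPKM, and Igf2bp3 is listed at 0. Afp also overlapped Igf2 between these libraries, and Igf2 overlapped Dlk1. Ly6d and Golm1 had nearly equal counts in the labelled Mdr2-knockout libraries, but the length that the FPKM imply is 691 bases for Ly6d and 3693 for Golm1, so that Ly6d had the higher level per length.

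Most reads of the set came from Golm1 and Ly6d in both groups. They made up 86.0% to 88.5% of the counts of the 7 genes in the labelled Mdr2-knockout and 72.2% to 81.2% in the labelled WT libraries. The 7 genes together had 538, 556 and 557 counts in the labelled Mdr2-knockout and 80, 97 and 78 counts in the labelled WT libraries. Among the labelled Mdr2-knockout libraries, the counts of Golm1 and Afp were highest in replicate 1 and those of Igf2bp3 in replicate 2. Those of Ly6d, Igf2 and Gpc3 were highest in replicate 3. For Afp and Igf2bp3 the variance over these libraries was 1.0 times the mean, no more than counting alone gives. It was 1.85 to 5.13 times the mean for Igf2, Gpc3, Golm1 and Ly6d. With 3 libraries, the different peaks do not show that the genes behave separately.

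Markers of several other cell types moved with the set. All 10 of 10 cholangiocyte markers were higher, with a summed level of 385 to 422 CPM in the labelled Mdr2-knockout and 61.9 to 81.6 CPM in the labelled WT libraries. Among 10 markers of stellate cells and fibroblasts, 7 were higher and 0 lower (419 to 526 CPM in the labelled Mdr2-knockout, 150 to 226 CPM in the labelled WT libraries), and among 8 macrophage markers 6 were higher and 0 lower (464 to 496 CPM in the labelled Mdr2-knockout, 183 to 323 CPM in the labelled WT libraries); at an unadjusted p under 0.05, by DESeq2 and by limma-voom, 0 of either list were lower too. No marker of these 3 lists was at 0 in either group. Of 8 endothelial markers Stab2 was higher and Oit3, Kdr and Clec4g were lower (summed, 248.9 to 256.8 CPM in the labelled Mdr2-knockout, 254 to 286 CPM in the labelled WT libraries); with total counts 3 were higher and 1 lower. Erythroid markers, which the fetal liver as a blood-forming organ also expresses, summed to 216 to 241 CPM in the labelled Mdr2-knockout and 209 to 484 CPM in the labelled WT libraries, with labelled WT replicate 3 the highest. Of 6 tested, Alas2 was lower and 0 were higher by edgeR, at an unadjusted p under 0.05, by DESeq2 and by limma-voom, and with total counts 0 were called. Of the 12 hepatocyte markers 8 were lower and 1 higher, with total counts 7 and 2. In bulk RNA, fewer or more cells of a type cannot be told apart from less or more RNA per cell, and the part of these cells in the values of Golm1, Ly6d, Afp, Igf2 and Igf2bp3 was not tested.

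**Figure D4:**
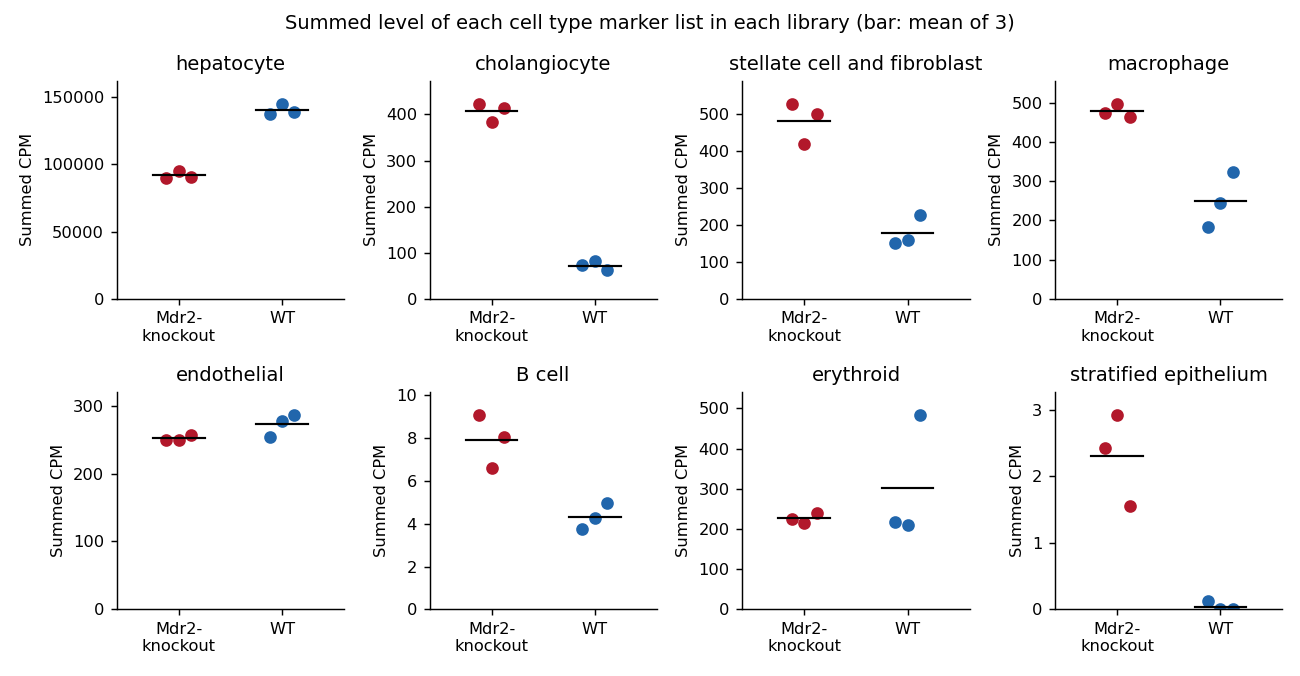
Summed CPM (y axis, linear from 0) of each list of cell type markers in each library labelled Mdr2-knockout (red, left) and labelled WT (blue, right), with a bar at the mean of 3. Cholangiocyte, stellate cell and macrophage sums are higher in every labelled Mdr2-knockout library, the hepatocyte sum is lower in each, and the endothelial and erythroid sums overlap. The B-cell and stratified epithelium sums, both at low levels, are also higher in every labelled Mdr2-knockout library.

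Regulators known to control fetal liver genes were measured for the same libraries. Of 13 tested regulators 6 were lower and 0 higher by edgeR (8 lower and 1 higher at an unadjusted p under 0.05; 6 and 0 by DESeq2 and by limma-voom), with a median log2 fold change of -0.37 against 0.01 over all tested genes. With RLE factors 6 were lower and 0 higher, and with upper-quartile factors 6 were lower and 1 higher. With total counts, which shift the median of all tested genes up, 1 was lower and 4 were higher. Most of these calls were thus kept under each kind of scaling factor and lost without factors. Foxa3, a liver forkhead factor, was lower under each scaling (log2 fold change -0.64, edgeR adjusted p = 0.00187). The nuclear receptors Nr5a2 (-0.50, edgeR adjusted p = 0.00147) and Hnf4a (-0.60, edgeR adjusted p = 0.00441), and Zhx3 (-0.37, edgeR adjusted p = 0.00681), were not called with total counts. Zhx2, the postnatal repressor of Afp in mouse liver and named after its value was seen, stood at 21.8 ± 0.553 CPM in the labelled Mdr2-knockout and 27.5 ± 1.51 CPM in the labelled WT libraries (SD, n = 3 each). Its log2 fold change was -0.34 (edgeR adjusted p = 0.00761) with TMM and -0.05 (edgeR adjusted p = 0.655) with total counts. Zbtb20, another repressor of Afp in mouse, was likewise named after its value was seen. It had a log2 fold change of 0.28 with TMM and was not called (edgeR adjusted p = 0.122). With total counts it had 0.57 and was called higher (edgeR adjusted p = 0.00871), as it was in 3 of 14 alternatives in all.

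Genes known to respond to Zhx2 in mouse liver did not move as 1 group. Besides Afp, the lipase gene Lpl rose (94.5 ± 11.2 CPM in the labelled Mdr2-knockout and 17.3 ± 4.41 CPM in the labelled WT libraries, SD, n = 3 each; log2 fold change 2.45, edgeR adjusted p = 0.000159). Elovl3, a fatty acid elongase gene, had -0.36 and did not pass (edgeR adjusted p = 0.308), and Gpc3 is given above.

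Imprinted growth genes, the class of Igf2 and Dlk1, were higher for 4, lower for 2 and not called for 6 of 12 tested. With total counts 6 were higher and 0 lower, and with upper-quartile scaling 4 and 0. The 2 lower genes, named after their values were seen, were Gnas (-0.26, edgeR adjusted p = 0.0226) and the amino acid transporter gene Slc38a4 (-0.27, edgeR adjusted p = 0.0259), which turned to 0.03 each with total counts. Gnas was also not called without labelled Mdr2-knockout replicate 2 or 3 or labelled WT replicate 1 or 2 (edgeR adjusted p = 0.0548, 0.0698, 0.0576 and 0.0756), nor Slc38a4 without labelled Mdr2-knockout replicate 1 or 3 or labelled WT replicate 2 (0.0623, 0.086 and 0.0948). Sgce and Peg10, imprinted neighbours on mouse chromosome 6 that are expressed from the paternal copy, were the 2 with the smallest p. Sgce stood at 13.7 ± 1.45 CPM in the labelled Mdr2-knockout and 3.05 ± 0.525 CPM in the labelled WT libraries (SD, n = 3 each; log2 fold change 2.17, edgeR adjusted p = 1.11e-05), and Peg10 at 3.75 ± 0.578 and 0.677 ± 0.158 CPM in the same order (2.46, edgeR adjusted p = 0.000149). The growth factor adaptor gene Grb10 (1.35, edgeR adjusted p = 0.000734) and the matrix proteoglycan gene Dcn (0.74, edgeR adjusted p = 0.0125) were higher too. Below the filter, Phlda2 had 33 counts over the labelled Mdr2-knockout and 5 over the labelled WT libraries, and Dio3, which shares an imprinted cluster with Dlk1, had 10, 0 and 6 against 0 in each. Ndn had 30 and 23 counts, Nnat 4 and 2, and Zim1 2 and 1, in the same order. Among these low genes the groups overlapped for all but Phlda2. Of all genes with a count below the filter, 19% had every labelled Mdr2-knockout library above every labelled WT library.

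Other oncofetal RNA-binding and chromatin factors changed in both directions where they could be tested. All 10 had a row and 4 were tested, of which 1 was higher and 1 lower; with total counts 2 were higher and 0 lower, and DESeq2 called 1 higher and 2 lower. Igf2bp2, the paralog of Igf2bp3 that adult tissues also express, was the higher one, at 2.06 ± 0.773 CPM in the labelled Mdr2-knockout and 0.826 ± 0.221 CPM in the labelled WT libraries (SD, n = 3 each; log2 fold change 1.32, edgeR adjusted p = 0.02). Its call was lost without labelled Mdr2-knockout replicate 1 or 2 (edgeR adjusted p = 0.0807 and 0.0638) or labelled WT replicate 2 or 3 (0.0736 and 0.0539). The third paralog, Igf2bp1, had 0 counts over the labelled Mdr2-knockout and 1 over the labelled WT libraries. Lin28b and Sall4, both embryonic factors, had 0 counts in every library, which allows up to 3 counts in each group. Lin28a had 0 counts over the labelled Mdr2-knockout and 1 over the labelled WT libraries. The chromatin factor gene Hmga2 had 9 and 3 counts, while Hmga1 was expressed and did not pass (log2 fold change 0.03, edgeR adjusted p = 0.846). Mycn, a transcription factor gene of the MYC family, did not pass either (-1.46, edgeR adjusted p = 0.109). Arid3a was the lower one (-0.91, edgeR adjusted p = 0.0383), a call lost in 7 of 14 alternatives, among them total counts (adjusted p = 0.108), limma-voom (0.0864) and the removal of any of the 3 labelled Mdr2-knockout replicates (0.116, 0.0785 and 0.0864) or of labelled WT replicate 1 or 2 (0.104 and 0.146).

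The relatives of Gpc3 moved in both directions. Of 5 tested glypicans and heparan sulphate sulphatases, 2 were higher and 2 lower. Gpc1 fell to 3.65 ± 0.406 CPM in the labelled Mdr2-knockout, against 9.81 ± 2.61 CPM in the labelled WT libraries (SD, n = 3 each; log2 fold change -1.43, edgeR adjusted p = 0.000593), and Gpc4 had -0.51 (edgeR adjusted p = 0.00108). Sulf1, which removes sulphate groups from heparan chains outside the cell, rose (2.44, edgeR adjusted p = 0.000509), as did Gpc6 (0.97, edgeR adjusted p = 0.0136). The call of Gpc6 was lost without labelled Mdr2-knockout replicate 2 (edgeR adjusted p = 0.0507) or labelled WT replicate 2 (0.0565). Below the filter, Gpc2 had 9, 11 and 28 counts in the labelled Mdr2-knockout and 0, 2 and 4 in the labelled WT libraries. Gpc5 had 1 count over the labelled Mdr2-knockout and 0 over the labelled WT libraries. Without the low-count filter, where 17.3% of 16277 genes were called higher, 3 of the list were higher and 2 lower.

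In the Ly6 family, the surface protein family of Ly6d, 3 of 5 tested genes were higher and 1 was lower. Ly6e rose to 1112 ± 160 CPM in the labelled Mdr2-knockout, against 225 ± 79.9 CPM in the labelled WT libraries (SD, n = 3 each; log2 fold change 2.30, edgeR adjusted p = 0.00193), and Lynx1 had 2.32 (edgeR adjusted p = 0.00018). Ly6c1 (2.01, edgeR adjusted p = 0.0437) and the lower Gpihbp1, an endothelial carrier of lipoprotein lipase (-0.36, edgeR adjusted p = 0.0427), were each lost in 7 of 14 alternatives. For Ly6c1 the edgeR adjusted p became 0.0985, 0.0759 and 0.106 when labelled Mdr2-knockout replicate 1, 2 or 3 was left out, and 0.0905 and 0.12 when labelled WT replicate 1 or 3 was. For Gpihbp1 it became 0.131 and 0.0614 when labelled Mdr2-knockout replicate 1 or 3 was left out, and 0.137 and 0.0749 when labelled WT replicate 2 or 3 was. Ly6g and Ly6h had 0 counts in every library, and Ly6f, Ly6i and Ly6k had 6, 3 and 3 counts over the labelled Mdr2-knockout and 0 over the labelled WT libraries. Ly6c2, also below the filter, had 24 and 21 counts in the same order, with overlapping groups. Ly6m had 3 and 1, and Lypd3 and Psca had 1 and 0 each. Reads of close Ly6 paralogs could be split between copies, so single values are uncertain.

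Golgi genes, the class of Golm1, were called in both directions. Of 13 tested, 2 were higher and 4 lower, with a median log2 fold change of -0.16; with total counts 5 were higher and 0 lower. Golm2, the paralog of Golm1 and named after its value was seen, was 1 of the 2 higher (6.41 ± 0.938 CPM in the labelled Mdr2-knockout and 3.88 ± 0.554 CPM in the labelled WT libraries, SD, n = 3 each; log2 fold change 0.72, edgeR adjusted p = 0.0111). The other was the convertase gene Pcsk5, also named after its value was seen, a call lost in 9 of 14 alternatives. The convertase Furin had -0.37 (edgeR adjusted p = 0.00883) with TMM and -0.07 (edgeR adjusted p = 0.504) with total counts. St6gal1 (-0.36), Mgat1 (-0.27) and Tgoln1 (-0.44) were called lower with TMM and not with total counts, where Mgat1 turned to 0.03.

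For the IGF system around Igf2, 1 of 13 tested genes was higher and 4 were lower; with total counts 2 were higher and 1 lower. Igfbp7, a secreted binding protein, rose to 95.7 ± 10.1 CPM in the labelled Mdr2-knockout, against 45.8 ± 4.96 CPM in the labelled WT libraries (SD, n = 3 each; log2 fold change 1.06, edgeR adjusted p = 5.19e-05). Igfals, which holds IGFs in plasma complexes, fell (-0.94, edgeR adjusted p = 0.00865). The insulin receptor gene Insr (-0.34, edgeR adjusted p = 0.00424) and the docking protein gene Irs1 (-0.52, edgeR adjusted p = 0.0104) were lower with TMM and not called with total counts, as was Igfbp4, named after its value was seen. Of the IGF receptors, Igf1r had 0.67 (edgeR adjusted p = 0.0744) and Igf2r, which clears IGF2, -0.12 (edgeR adjusted p = 0.182), neither of them called and both named after their values were seen. For Dlk1, 0 of 5 tested Notch receptors and related genes were called in either direction by edgeR or limma-voom, while 1 was higher at an unadjusted p under 0.05 and by DESeq2, and 3 were higher with total counts.

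**Figure D5:**
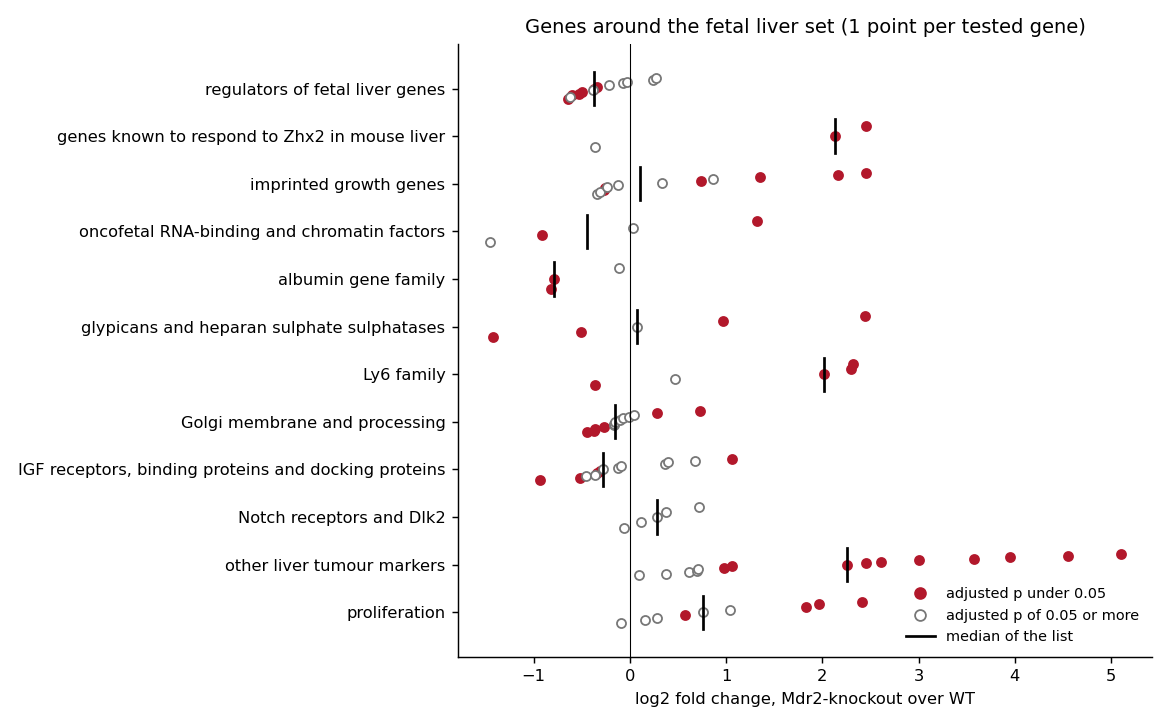
The log2 fold change of labelled Mdr2-knockout over labelled WT (x axis) of each tested gene in the lists around the set (rows), filled where the edgeR adjusted p is under 0.05, with a bar at the list's median. Liver tumour markers reach the highest values, with a median of 2.26, while regulators of fetal liver genes lie mostly below 0, with a median of -0.37, under TMM scaling.

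Among other liver tumour markers edgeR called 10 of 15 tested genes higher and 0 lower, as did DESeq2 and limma-voom in number (14 and 0 at an unadjusted p under 0.05; 12 and 0 with upper-quartile scaling and 15 and 0 with total counts). Their median log2 fold change was 2.26, against 0.01 over all tested genes, of which edgeR called 20.9% higher. This list, like the others around the set, was chosen with earlier results of these data known. Its count and median are therefore no support in themselves. Lpl is in this list and among the Zhx2 genes. The smallest p-values were those of Cd24a (3.95, edgeR adjusted p = 5.41e-07), Sox4 (3.01, edgeR adjusted p = 9.47e-06) and Tspan8 (4.56, edgeR adjusted p = 3.26e-05), which epithelial progenitor and duct cells also express. Next came Pkm, the pyruvate kinase gene of fetal liver and non-hepatocyte tissue (0.98, edgeR adjusted p = 0.00013). Of 9 tested proliferation genes 4 were called higher and 0 lower by edgeR and by limma-voom, 3 and 0 by DESeq2, and 6 and 0 at an unadjusted p under 0.05 and with total counts; the median was 0.76. Mki67 had 198 counts over the labelled Mdr2-knockout and 44 over the labelled WT libraries (1.83, edgeR adjusted p = 0.00218), and the cyclin gene Ccna2 had 55 and 11 (1.96, edgeR adjusted p = 0.00745). The topoisomerase gene Top2a (2.41, edgeR adjusted p = 0.0161) was not called without labelled WT replicate 2 (0.0515), and the replication helicase gene Mcm2 (0.57, edgeR adjusted p = 0.0468) was lost in 9 of 14 alternatives, among them labelled Mdr2-knockout replicate 2 or 3 left out (0.149 and 0.102) and labelled WT replicate 1, 2 or 3 left out (0.102, 0.109 and 0.0805).

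The genes whose pattern over the 6 libraries lay nearest to each tested gene were found by the root mean square distance in log2 CPM, after each gene was centred on its own mean. For Golm1 these were Fkbp10 (distance 0.0825), an endoplasmic reticulum foldase for collagen, Entpd2 (0.0869), an ectonucleotidase, and Acot9 (0.091), a mitochondrial thioesterase. The genes nearest to Ly6d were Ankrd1 (0.218), Zfp469 (0.295) and Cd24a (0.312). Glis3 (0.114), Clec10a (0.159) and Tnfaip3 (0.186) lay nearest to Afp, and Mmp11 (0.0774), Traf3ip3 (0.0865) and Synm (0.118) to Igf2. With 6 libraries in 2 groups, a small distance mostly means a group difference of like size, and it is a description only.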

How the data were processed

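Per the labels, liver RNA of 3 WT and 3 Mdr2-knockout samples was sequenced. The authors deposited whole-number read counts per gene symbol, without normalization, and FPKM for the same genes. The submitters' processing notes list HISAT2, Bowtie2, SAMtools, Trimmomatic, StringTie, HTSeq, Cufflinks and DESeq and the build mm10; roles, annotation and strand setting: not given in the sources used here. Values in FPKM, as deposited, equalled counts scaled by library total and a gene length within 1% for all 11443 genes with at least 10 counts in all 6 libraries, and are used only to compare genes. All columns were used, with 0 lacking a sample.

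The main test of the counts was edgeR 4.0.16 (R 4.3.3): filterByExpr defaults (minimum count 10, minimum total 15), TMM, robust quasi-likelihood, group as the only term, Benjamini-Hochberg adjustment over 12612 genes, threshold 0.05. Each SE is the absolute log2 fold change over the root of F. A positive log2 fold change means higher in the labelled Mdr2-knockout libraries. Library totals of 17100393 to 18124467 counts became 15658486 to 20160135 after TMM scaling. On these scaled sizes, 3 counts in 1 library stood at 0.149 to 0.192 CPM. The floor of 3 counts itself was set over a group. Alternatives were other scalings and filters, DESeq2 1.42.0, limma-voom (limma 3.58.1), a replicate term and leaving out each library. The pipeline was tested on simulated data. The genes, lists and markers were chosen with earlier results of these data known. Genes named are the 8 listed genes, Abcb4, Alb, the 4 of each list with the smallest p, genes of a list below the filter and the 3 nearest genes to each tested gene; others are said to be named after their values were seen, and marker genes are named from their lists.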

Additional observations from a re-analysis of the deposited data

How the results depend on the processing

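Golm1, Ly6d and Afp were called higher in each of the 14 alternatives, with log2 fold changes of 1.73 to 2.10, 3.998 to 4.61 and 1.75 to 2.63. Igf2 was called in 6 of the 13 alternatives that tested it (1.05 to 1.78; adjusted p 0.0125 to 0.137). The number of genes of the set called higher was 3 or 4 and that called lower 0 in every alternative; without the low-count filter the 4 included Igf2bp3 in place of Igf2. Leaving out 1 library, 3 or 4 were higher, and 3541 to 4609 of all tested genes were called, against 4685 with all 6 libraries. With total-count scaling 5943 of all tested genes were higher and 330 lower, against 2634 and 2051 with TMM. The count of called genes over all the surrounding lists was 50, and 41 to 56 in the alternatives; single lists of few genes moved more. Replicate numbers showed no sign of pairing the samples. Deviations of same-numbered libraries correlated at 0.0842, 0.0449 and -0.0759, and those of differently numbered libraries at -0.117 to 0.069. With 3 libraries in each group, such values cannot exclude a pairing. With the replicate block 4568 genes were called, the set had 4 higher and 0 lower, and the lists 53. Counts below 10 in a library limit what can be said of Afp, Igf2, Gpc3 and Ly6d in the labelled WT libraries, of Gpc3 in labelled Mdr2-knockout replicate 2, and of Igf2bp3 and Dlk1 throughout.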
